A study of Mus musculus with 8 samples.

Results

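Small leucine-rich proteoglycans (SLRPs) are secreted proteins built around leucine-rich repeats, and 10 SLRP genes were followed here in cartilage of the mouse knee: Fmod, Bgn, Dcn, Lum, Prelp, Ogn, Omd, Aspn, Chad and Epyc. They were taken from a named list by symbol, and all 10 were found among the 50462 gene identifiers of the count table. Medial knee cartilage caps had been dissected from 8 wild-type male C57Bl/6J mice, with 1 RNA-seq library per mouse. Naive mice (n = 4) had no surgery and were 11 weeks old (day 0). DMM mice (n = 4) underwent destabilisation of the medial meniscus at 11 weeks of age, in which the meniscotibial ligament of the left knee is cut and the medial meniscus loosened, and were 17 weeks old at sampling on day 42. DMM is a surgical model of post-traumatic osteoarthritis. Sham-operated knees were not analysed here, and the effects of surgery and of the added 6 weeks of age therefore cannot be told apart.

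SLRPs sit on and between collagen fibrils, where they set fibril spacing and thickness, and several also bind growth factors of the TGF-beta family. Class I proteins (decorin, biglycan and asporin) carry chondroitin or dermatan sulfate chains, except asporin, which has none. Those of class II (fibromodulin, lumican, PRELP and osteomodulin) can carry keratan sulfate, epiphycan and osteoglycin form class III, and chondroadherin is placed in class IV. In cartilage these proteins are part of the matrix laid down by chondrocytes, and several are also abundant in tendon, meniscus and bone.

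Transcripts of 7 SLRP genes were higher in DMM than in naive cartilage, and none were lower. Asporin, fibromodulin and lumican rose the most, by 4.62-fold, 4.22-fold and 3.90-fold. Decorin and PRELP rose by 2.46-fold and 2.17-fold, and biglycan and osteoglycin by 1.81-fold and 1.78-fold. Osteomodulin, chondroadherin and epiphycan did not pass the test. A gene was called higher or lower when DESeq2 gave an adjusted p of 0.05 or less over all genes together with a change of 1.5-fold or more, and by that rule 7.75% of the 17760 genes with an adjusted p were called higher and 5.92% lower. In 7 of the 10 genes every DMM library also lay above every naive library, as was the case for 11.9% of the tested genes. The median log2 fold change was 0.99 over the 10 genes and -0.02 over all tested genes.

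**Figure D1:**
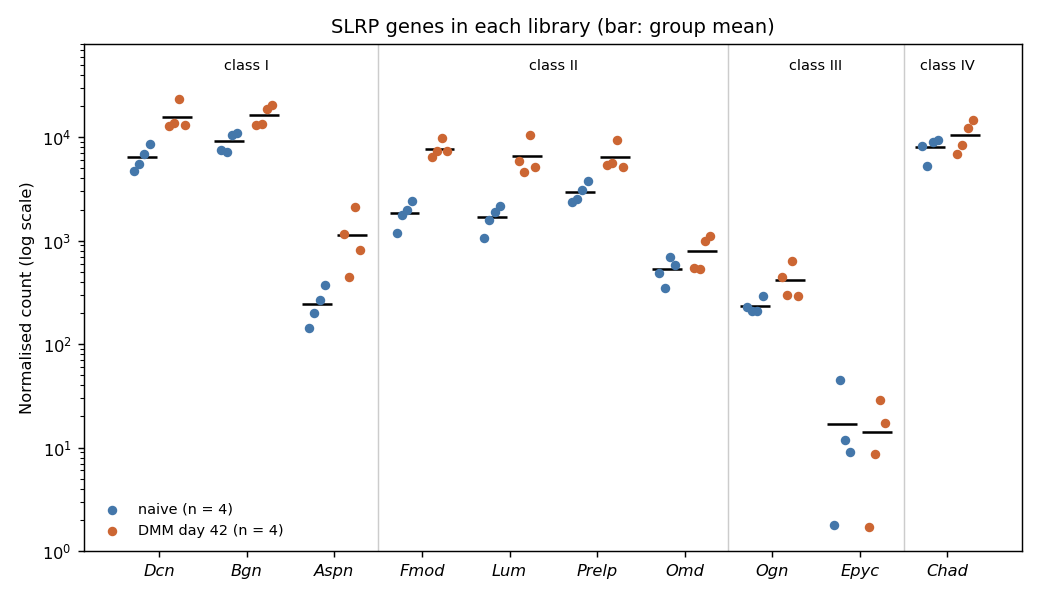
Normalised counts (log axis) of the 10 SLRP genes in each library, grouped by SLRP class. Points are single libraries in replicate order, blue for the 4 naive and orange for the 4 DMM mice, and black bars are group means. Fmod shows the widest separation of the groups, whereas the Omd, Chad and Epyc groups overlap.

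Total estimated counts lay between 12479443 and 16548002 per library, and values below are counts normalised with DESeq2's size factors unless another scale is named. Chondrocyte transcripts were abundant, with Col2a1 between 15101 and 97826 and Acan between 5202.5 and 16873 normalised counts, while the cartilage matrix gene Matn1 was at 3.5 or less in 7 of the 8 libraries. RNA of marrow and bone was present too. The summed level of 10 neutrophil lineage genes was 128690 to 192510 in naive and 56541 to 115990 in DMM libraries, with 9 of the 10 called lower, and the sum of 10 osteoblast and osteocyte genes was 129840 to 220660 and 345210 to 428060, with 9 of the 10 called higher. No defining marker of either list was at 0 in all libraries. In such bulk samples, fewer cells of a type and less RNA per cell cannot be told apart, and the part of these shifts in the SLRP values was not tested. Setting the size factors from the 15 chondrocyte marker genes in place of all genes moved the median log2 fold change, over genes averaging 10 or more counts, from -0.01 to -0.64. Of these 15 markers 5 were themselves called higher in the reported fit and none lower, with a median log2 fold change of 0.57. Values on that scale are relative to those markers and do not measure chondrocyte content. On that scale Fmod, Lum and Aspn were still called, with log2 fold changes of 1.48, 1.35 and 1.57, and Dcn (0.66), Prelp (0.48), Bgn (0.18) and Ogn (0.17) were not.

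Reference sequences of the stretch upstream of the start site are shown for the genes with the largest increases that have one in the table used, Aspn and Fmod, and for Chad, the SLRP with the highest level per length. Each is the 250 bases before the start of transcription on the plus strand of GRCm38.p6, from RefSeq, at chr13:49544193-49544442 for Aspn, chr1:134037004-134037253 for Fmod and chr11:94564797-94565046 for Chad. Capitals mark matches on either strand to a TATA box (TATAAA) or a GC box (GGGCGG). Other motifs searched, an AP-1 site (TGANTCA), a RUNX site (TGTGGT) and a SOX site (ACAAAG), had no match in these 3 windows.
Aspn: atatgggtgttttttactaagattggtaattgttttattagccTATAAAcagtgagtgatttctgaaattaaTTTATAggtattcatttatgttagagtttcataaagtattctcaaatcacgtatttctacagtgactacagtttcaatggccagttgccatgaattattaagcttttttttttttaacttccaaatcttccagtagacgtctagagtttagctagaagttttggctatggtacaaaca
Fmod: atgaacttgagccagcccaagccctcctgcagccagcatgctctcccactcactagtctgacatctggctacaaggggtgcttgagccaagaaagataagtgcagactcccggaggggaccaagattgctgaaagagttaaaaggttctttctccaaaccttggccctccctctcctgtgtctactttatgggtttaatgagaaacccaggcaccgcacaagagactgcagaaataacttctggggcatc
Chad: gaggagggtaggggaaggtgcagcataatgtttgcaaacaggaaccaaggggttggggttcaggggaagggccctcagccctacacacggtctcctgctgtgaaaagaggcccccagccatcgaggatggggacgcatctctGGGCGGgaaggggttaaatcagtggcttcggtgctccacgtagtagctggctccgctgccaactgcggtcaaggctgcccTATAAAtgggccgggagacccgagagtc
The Chad window has TATAAA starting at base -28 from the start site, where such a box usually lies, and GGGCGG at -108. In the Aspn window TATAAA occurs at -207 and, on the opposite strand, at -178, and the Fmod window holds neither motif. Of 32851 mouse promoter windows of this length, 12.37% contain TATAAA and 32.74% contain GGGCGG. The windows also differ in composition, with 30.0% G and C in Aspn, 51.2% in Fmod and 60.4% in Chad. Matches describe the letters only and say nothing of which factors bind.

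Among class I genes, Dcn encodes decorin, which coats collagen fibrils and binds TGF-beta. Dcn had 4728.5, 5568.9, 6973.8 and 8627.4 normalised counts in naive replicates 1 to 4 and 12856, 13895, 23656 and 13180 in DMM replicates 1 to 4. DMM replicate 3 stood apart, and the other DMM libraries were close together and still above every naive value. Dcn rose by 1.30 on the log2 scale (SE 0.23, DESeq2 adjusted p = 7.76e-07).

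Biglycan (Bgn), a close relative of decorin with a pair of glycosaminoglycan chains, was at 7582.2, 7277.1, 10656 and 11129 in naive and at 13140, 13476, 18916 and 20679 normalised counts in DMM libraries. Its DMM values fell into a lower pair (replicates 1 and 2) and a higher pair (replicates 3 and 4), and the lowest of them was 1.18 times the highest naive value. Bgn rose by 0.85 on the log2 scale (SE 0.19, DESeq2 adjusted p = 1.89e-04).

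Aspn encodes asporin, which carries a run of aspartate residues and competes with decorin for collagen. Counts were 142.5, 199.6, 264.4 and 375.3 in naive libraries against 1162.7, 448.3, 2106.6 and 820.4 in DMM libraries. Of the called genes among the 10 it was the most variable, with a coefficient of variation of 62.6% among DMM mice, and DMM replicates 1 and 3 were the highest. The log2 fold change was 2.21 (SE 0.54, DESeq2 adjusted p = 6.17e-04), and with only DMM replicates 2 and 4 kept in the fit it was 1.38 (adjusted p = 0.00162).

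In class II, fibromodulin (Fmod) binds collagen and takes part in fibril assembly and cross-linking. It had 1190.7, 1757.4, 1998.2 and 2416.2 normalised counts in naive and 6501.7, 7379.8, 9857.1 and 7359.2 in DMM mice. The lowest DMM library was at 2.69 times the highest naive library, the widest gap of the 10 genes, and the coefficient of variation was 27.8% in naive and 18.6% in DMM libraries. Fmod rose by 2.08 on the log2 scale (SE 0.20, DESeq2 adjusted p = 5.30e-21), a value that stayed between 1.92 and 2.24 when single libraries were left out. With other tools the adjusted p of Fmod was much larger, at 0.0016 in edgeR (quasi-likelihood test) and 0.00183 in limma-voom.

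Lumican (Lum), which shares collagen binding with fibromodulin, was at 1061.4, 1573.8, 1914.7 and 2170.2 in naive and 5859.8, 4642.9, 10603 and 5129.9 in DMM libraries. All DMM values exceeded the naive ones, by at least 2.14 times, and DMM replicate 3 was again the highest. Lum rose by 1.97 on the log2 scale (SE 0.36, DESeq2 adjusted p = 4.02e-06).

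PRELP, a basic protein that links collagen to heparan sulfate chains, followed a similar course. Prelp counts were 2363.0, 2529.0, 3102.7 and 3776.8 in naive libraries and 5419.5, 5616.8, 9406.0 and 5155.2 in DMM libraries. The groups did not overlap, and outside DMM replicate 3 the DMM values spanned a narrow range. On the log2 scale Prelp rose by 1.12 (SE 0.21, DESeq2 adjusted p = 5.49e-06).

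Osteomodulin (Omd), also called osteoadherin, is a keratan sulfate proteoglycan of mineralised matrix. It had 490.7, 351.2, 699.9 and 583.9 normalised counts in naive and 547.3, 531.0, 994.4 and 1110.1 in DMM mice. DMM replicates 1 and 2 lay within the naive range, and replicates 3 and 4 lay above it. The log2 fold change of 0.58 (95% interval 0.06 to 1.10) did not pass (DESeq2 adjusted p = 0.101), and relative to the chondrocyte marker genes its sign turned, at -0.15. With single libraries left out in turn, Omd was called in 3 of 8 fits.

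Class III held the members with the lowest group means, although Ogn overlapped with Aspn of class I in naive libraries. Osteoglycin (Ogn), also known as mimecan, is found in bone and connective tissue matrix. Ogn counts were 229.5, 208.9, 209.8 and 291.4 in naive libraries and 447.8, 295.6, 633.0 and 291.5 in DMM libraries. Its groups barely separated, since DMM replicates 2 and 4 were at the level of naive replicate 4. The log2 fold change was 0.83 (SE 0.25, DESeq2 adjusted p = 0.00635), and Ogn was no longer called without DMM replicate 3. With only DMM replicates 2 and 4 kept it was 0.32 (adjusted p = 0.368).

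Epiphycan (Epyc), a proteoglycan of epiphyseal and growth plate cartilage, was near the detection limit. Its normalised counts were 1.8, 45.2, 11.8 and 9.1 in naive and 1.7, 8.6, 28.8 and 17.1 in DMM libraries, from 2 to 35 estimated counts. No direction could be read, with a log2 fold change of -0.25 and a 95% interval from -1.92 to 1.42 (DESeq2 adjusted p = 0.883). Leaving out 1 library moved it between -0.88 and 0.92. Of its 31-base words, 40.0% also occur in Gm10754, which had at most 1.2 estimated counts. The highest naive library for Epyc, replicate 2, was also the highest for the cartilage genes Matn3 and Col9a1, at 329.9 and 1710.8 normalised counts against at most 86.7 and 540.5 in the other naive libraries.

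Chondroadherin (Chad) of class IV lacks glycosaminoglycan chains and binds type II collagen and an integrin on chondrocytes. It was at 8231.2, 5244.3, 9102.6 and 9524.3 in naive and 6850.0, 8469.8, 12303 and 14683 normalised counts in DMM mice. DMM replicates 1 and 2 lay inside the naive range, as they did for Omd. The log2 fold change was 0.40 with a 95% interval from -0.07 to 0.87 (DESeq2 adjusted p = 0.243), so a rise of up to 1.82-fold lay within the interval, and relative to the chondrocyte marker genes the sign turned, at -0.36.

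**Figure D2:**
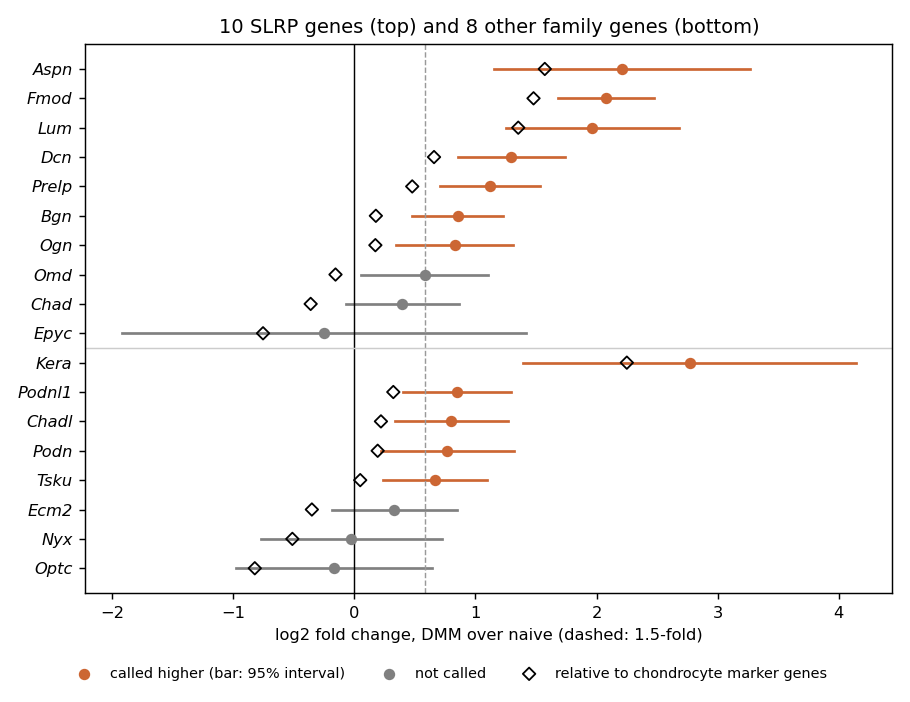
Log2 fold change, DMM over naive (x axis), of the 10 SLRP genes (top) and 8 other genes of the family (bottom), 4 libraries per group. Filled points with bars are DESeq2 estimates with 95% intervals, orange where called higher, and open diamonds are values with size factors from chondrocyte marker genes. Diamonds of Kera, Aspn, Fmod and Lum stay above 1, and those of Omd, Chad, Epyc, Ecm2, Nyx and Optc lie below 0.

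Per kilobase of exon, a scale on which genes can be compared, Chad had the highest level of the family in both groups, at 4777 ± 1149 normalised counts per kilobase in naive mice and 6296 ± 2123 in DMM mice (SD, n = 4). Every naive Chad value exceeded those of the other SLRP genes on this scale. In DMM libraries its range (4077 to 8740) overlapped that of Lum (1897 to 4331) across mice. Within each DMM library, Chad was still above every other SLRP gene on this scale. In naive cartilage Bgn, Dcn, Prelp, Lum and Fmod followed in that order in every library, although the ranges of neighbours overlapped. In DMM cartilage Dcn (2723 ± 889), Bgn (2714 ± 626), Lum (2679 ± 1120) and Fmod (2352 ± 438) could not be ranked, since neighbours changed places between libraries. Fmod moved from position 752 to 170 among 26073 genes ranked by level per kilobase, Aspn from 4972 to 771 and Chad from 101 to 57. Dividing by the longest transcript instead gave Bgn 3436 per kilobase in naive and 6209 in DMM cartilage. That placed it second in both groups, close to Chad in DMM cartilage. On that length the mean of Chad stayed above that of Bgn, at 4777 against 3436 in naive cartilage and 6296 against 6209 in DMM cartilage. The size of its lead over Bgn thus depended on the length used. Single libraries were not ranked on that length.

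**Figure D3:**
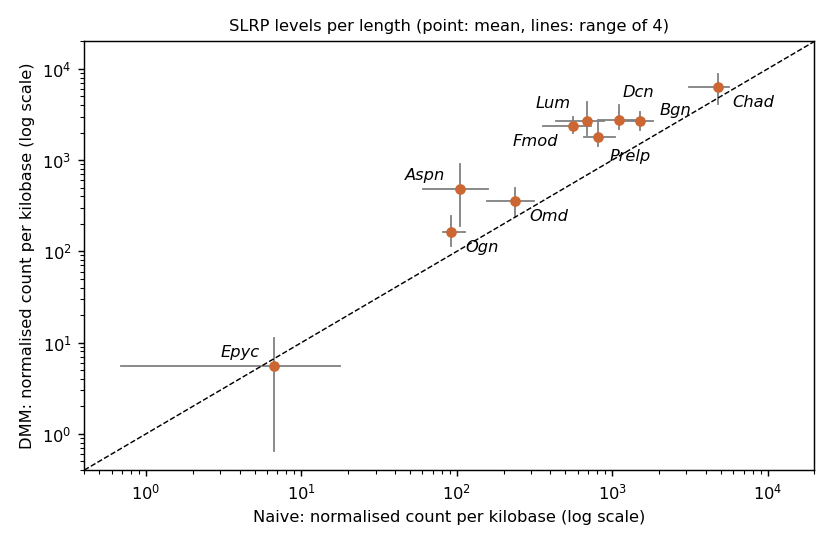
Mean normalised count per kilobase of exon in naive (x axis) and DMM libraries (y axis), both on log axes. Lines span the 4 libraries of each group, and the dashed line marks equal levels. Chad is at the top right at 4777 and 6296, and Aspn, Lum and Fmod lie farthest above the line.

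The share of each gene among the family transcripts is given as a description, with no test. It depends on the length used, since Bgn has 6099 bases of exon but a longest transcript of 2666. With the longest transcript the share of Bgn would be larger and that of Chad smaller. Chad made up 48.2% ± 5.88 (SD, n = 4) of the summed SLRP level per kilobase in naive mice and 32.1% ± 6.59 (SD, n = 4) in DMM mice. Fmod went from 5.66% ± 1.25 to 12.3% ± 1.56 and Lum from 6.96% ± 1.51 to 13.6% ± 3.17, while Bgn was at 15.2% ± 0.799 and 14.0% ± 1.69. The Chad ranges touched without overlap, with a lowest naive share of 41.7% and a highest DMM share of 41.4%. Of all estimated counts, the 10 genes together took 0.211% ± 0.0559 in naive mice and 0.493% ± 0.119 in DMM mice (SD, n = 4), with ranges of 0.147% to 0.270% and 0.393% to 0.650%.

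Several SLRP genes are genomic neighbours. On chromosome 10 Dcn, Lum, Kera and Epyc follow each other with gaps of 47, 34.2 and 30.4 kb. On chromosome 13 Ecm2, Aspn, Omd and Ogn are 11.7, 14.9 and 15.2 kb apart, and on chromosome 1 Prelp and Fmod are separated by 115.8 kb. No other protein-coding gene lies wholly within a gap between adjacent members of these clusters in GENCODE vM21. Genes that overlap a member or span a gap were not counted. Ratios between 2 genes within a library do not depend on its scaling, except through the 1 added to each count, which matters for Epyc. In this way 9 pairs were compared, 7 of them from the same cluster and 2 close paralogs.

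In 4 pairs from these clusters the ratios of the groups did not overlap, and no pair passed after adjustment. The log2 ratio of Omd to Aspn was 1.16 ± 0.53 in naive and -0.37 ± 0.83 in DMM mice, and that of Ogn to Aspn 0.01 ± 0.49 and -1.30 ± 0.49 (SD, n = 4 each). For Fmod to Prelp it was -0.70 ± 0.20 and 0.31 ± 0.19, so that Fmod had more counts than Prelp in all 4 DMM mice and fewer in all 4 naive mice. Dcn to Lum went from 1.96 ± 0.15 to 1.31 ± 0.21. Each of these 4 pairs had an exact two-sided permutation p of 0.0286, the smallest that 70 assignments allow, with an adjusted p of 0.0643 over the 9 pairs. With only 4 pairs at that smallest p, none could have reached 0.05 after adjustment, whatever the size of its shift. Omd to Aspn and Ogn to Aspn share Aspn and are not separate results. The paralogs Fmod and Lum had a log2 ratio of 0.14 ± 0.05 in naive and 0.31 ± 0.35 in DMM libraries (two-sided p = 0.40 in the exact permutation test, adjusted p = 0.45), and Bgn to Dcn 0.51 ± 0.16 and 0.08 ± 0.41 (exact permutation test, two-sided p = 0.114, adjusted p = 0.171). Ratios of Dcn and Lum to Epyc and of Ogn to Omd also overlapped between groups, with adjusted exact permutation p from 0.154 to 0.60.

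**Figure D4:**
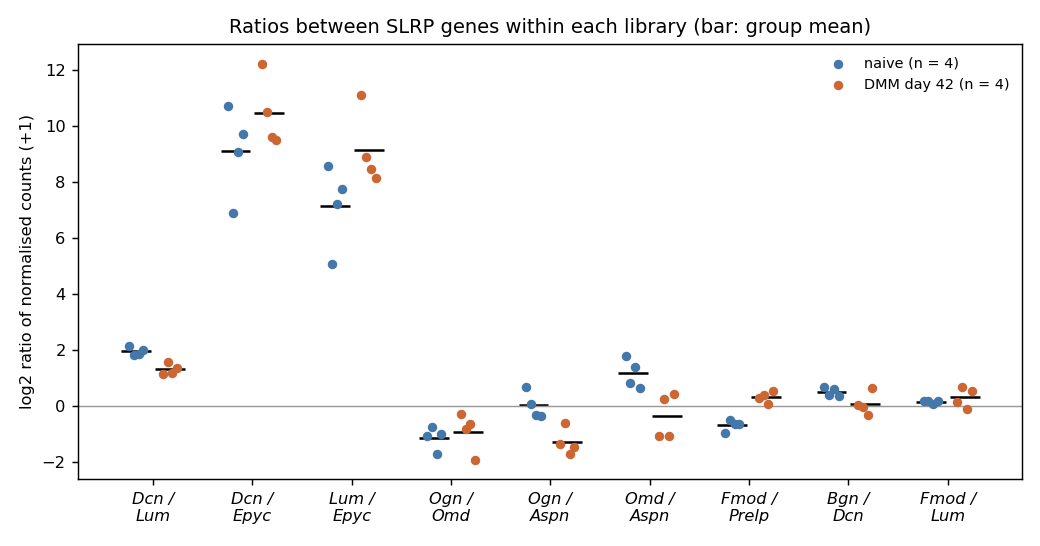
Log2 ratio of normalised counts (1 added to each) between 2 SLRP genes within each library, blue for naive and orange for DMM mice, with group means as bars. Dcn/Lum, Ogn/Aspn, Omd/Aspn and Fmod/Prelp separate the 4 naive from the 4 DMM libraries, and the other 5 ratios overlap.

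The DMM mice differed among themselves in which SLRP genes were high. DMM replicate 3 had the highest DMM value for 7 of the 10 genes and DMM replicate 4 for Bgn, Omd and Chad. In Aspn, Lum and Ogn replicates 1 and 3 were above replicates 2 and 4, an order found in 13.6% of the tested genes. Of 10 fibroblast markers of synovium or capsule 7 had it, among them Dpt (1278, 336.5, 1742.7 and 549.6 normalised counts in DMM replicates 1 to 4), and so did 4 of 7 tendon, ligament or meniscus markers, among them Tnmd (69.7, 17.2, 153.9 and 33.4) and Kera (78.8, 10.7, 103.7 and 9.9). Pi16, Dpp4, Vcam1, Mkx, Egr1 and Tnc of these lists did not. Kera, counted here as a marker, is itself a gene of the SLRP family. In Bgn, Omd, Chad and Epyc replicates 3 and 4 were above replicates 1 and 2, as in 25.5% of the tested genes. Markers with this order were 11 of 15 for chondrocytes, among them Col2a1 (43988, 40178, 73292 and 97826), and 10 of 10 for the neutrophil lineage, but 3 of 10 for osteoblasts and osteocytes, among them Ibsp (14803, 12617, 29264 and 39895). Of the 7 erythroid markers found, 3 had the first order and 4 the second. The first order also occurred in 2 of 8 B cell and 2 of 7 skeletal muscle markers. Of 7 tendon, ligament or meniscus markers 4 were called higher, against 7.75% of the tested genes. The summed level of the 7 was 13755 to 21306 in naive and 24002 to 27068 in DMM libraries. Tnc made up most of that sum, at 10980 to 16315 in naive and 19229 to 23140 in DMM libraries. Thbs4, the next most abundant, overlapped between the groups (2301.5 to 4123.8 and 1981.2 to 4912.9). Of the 10 fibroblast markers 4 were called higher, with sums of 5921.7 to 6679.5 and 6278 to 9771.5. No marker of these lists was at 0 in all libraries. Their part in the SLRP values was not tested. With DMM replicates 1 and 3 both left out, an alternative chosen after the data were seen, 6 of the 10 SLRP genes were called and Ogn was the one lost. Among naive mice, replicate 4 had the highest value for 8 of the 10 genes and replicate 1 the lowest for 6.

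**Figure D5:**
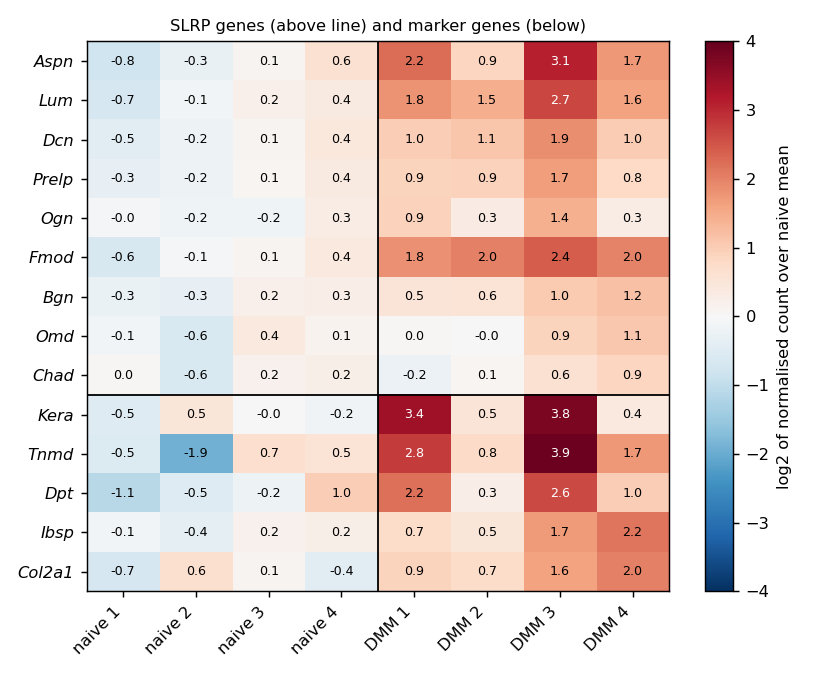
Log2 of each library's normalised count over the naive mean (colour and printed value) for 9 SLRP genes and 5 marker genes, in 4 naive and 4 DMM libraries. Among the markers, Kera is also a gene of the SLRP family. Aspn reaches 2.24 and 3.10 in DMM replicates 1 and 3, the libraries where Kera, Tnmd and Dpt are highest, whereas Chad is at -0.23 and 0.08 in DMM replicates 1 and 2 and at 0.62 and 0.87 in replicates 3 and 4.

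Among 11025 genes outside the family lists that averaged 100 or more normalised counts, the nearest in pattern to each SLRP gene was found by the root mean square difference of mean-centred log2 values over the 8 libraries. This is a description, since all genes share the libraries and the difference between the groups. Dcn was nearest to Cys1 (0.108) and Ccdc80 (0.114), and the SLRP gene nearest to it was Prelp (0.110), with 1 gene nearer. Prelp was nearest to Adamtsl3 (0.084) and Igfbp7 (0.117), Bgn to P4ha1 (0.0821) and Trps1 (0.0965), and Ogn to Mn1 (0.106) and Il11ra1 (0.137). For Bgn 212 genes were nearer than its closest SLRP gene, Omd (0.247), and for Ogn 130 were nearer than Prelp (0.278). Lum was nearest to Dkk3 (0.166) and Thbs3 (0.201) and Aspn to Apod (0.214) and Fndc1 (0.259). Fmod was closer to Lum (0.234) than to either Serpina3n or Col15a1 (both 0.259). Omd was likewise closer to Chad (0.169) than to Nrep (0.174) or Pank1 (0.175), and Chad was nearest to Znhit6 (0.145) and Cd200 (0.164). Epyc was nearest to Matn3 (0.168) and Col9a1 (0.41), and far from the other SLRP genes followed here (at least 1.38). Family genes beyond those followed were not compared. At 2 to 35 estimated counts per library, the pattern of Epyc is uncertain.

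Of 8 further family genes 5 were called higher and none lower, with a median log2 fold change of 0.72. Over all tested genes 7.75% were called higher and 5.92% lower. Keratocan (Kera), a corneal and tendon SLRP that lies between Lum and Epyc, was at 5.3, 10.6, 7.5 and 6.8 in naive and at 78.8, 10.7, 103.7 and 9.9 normalised counts in DMM libraries, so that DMM replicates 2 and 4 were at the naive level and replicates 1 and 3 far above it. Its log2 fold change was 2.77 (SE 0.70, DESeq2 adjusted p = 0.00103), and with only DMM replicates 2 and 4 kept it was 0.47. Podocan-like Podnl1 (0.85, DESeq2 adjusted p = 0.00212), Chadl (0.80, 0.00619), Podn (0.77, 0.0313) and Tsku (0.67, 0.0147) were called as well, at mean levels of 95.5 to 115.0 normalised counts in naive libraries. With single libraries left out, Podn was called in 2 of 8 fits and Tsku in 4, and Podnl1 and Chadl in all 8. Kera was called in 6, since without DMM replicate 1 or 3 (log2 fold changes of 2.48 and 2.16) it had no adjusted p, and limma-voom did not call it (log2 fold change 2.13, adjusted p = 0.16). Of the 31-base words in Chadl transcripts, 17.5% also occur in L3mbtl2, so reads can be split between these genes and the Chadl value is uncertain. Opticin (Optc), nyctalopin (Nyx) and Ecm2 were not called, with log2 fold changes of -0.16, -0.02 and 0.33.

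A list of 14 collagen chains and the cross-linking enzyme Lox had 13 of its 15 genes called higher, with a median log2 fold change of 1.34. All tested genes had 7.75% called higher and a median of -0.02. The 3 with the smallest adjusted p were the fibril-initiating type V collagens Col5a2 (6825 ± 1182 normalised counts in naive mice and 17284 ± 3092 in DMM mice, SD, n = 4) and Col5a1 (5326 ± 1626 and 14816 ± 2936), and the type I collagen chain Col1a2 (84016 ± 23706 and 196040 ± 27884). Proteases able to cut SLRPs were called higher in 7 of 10 cases, with a median of 0.85. Mmp3, or stromelysin, was at 25.5, 23.9, 62.1 and 45.4 in naive and 615.3, 296.7, 605.9 and 251.8 normalised counts in DMM libraries, a log2 fold change of 3.49 (SE 0.35). Gelatinase A (Mmp2) and the serine protease Htra1 had log2 fold changes of 1.80 (SE 0.26) and 1.34 (SE 0.20).

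Of 28 enzymes that build or sulfate glycosaminoglycan chains or sulfate tyrosines, 6 were called higher and none lower, with a median log2 fold change of 0.35. These were Chpf (1.21, SE 0.17), a partner of the chondroitin polymerase, Ust (0.79, SE 0.13), a uronyl sulfotransferase, Chsy3 (1.03, SE 0.19), a chondroitin synthase, and Dsel, Chst1 and Tpst1. The share called higher over all tested genes was 7.75%, and the share called lower 5.92%. Of 15 growth factors and receptors bound by SLRPs, 6 were called higher and none lower, with a median of 0.36. Ccn4, a matricellular protein of the WNT pathway, was the steadiest, at 685.1 to 729.1 in naive and 1400.3 to 1511.7 normalised counts in DMM libraries (log2 fold change 1.04, SE 0.08). Bmp2 had a log2 fold change of 1.22 (SE 0.23) and Tgfb3 of 1.09 (SE 0.23). DESeq2 adjusted p lay at 5.65e-05 or below for each gene given with an SE among these 4 lists.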

How the data were processed

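The deposited table holds estimated counts per gene, which the authors obtained from trimmed reads by Kallisto pseudo-alignment, with tximport giving gene sums. Of its values 39.0% were not whole, and all were rounded before testing. Kallisto splits reads that fit several genes, strand use was not stated, and length offsets were not used. The methods name GRCm38 with an Ensembl release of another assembly, and the labels list the human build GRCh38, so the build is uncertain. The labels name an NEB kit and the methods a SMART-Seq kit.

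Identifiers were matched to symbols (48855 of 50462, 86.6% of counts), and coordinates and exon lengths came from GENCODE vM21 (GRCm38). DESeq2 version 1.42.0 in R version 4.3.3 was fitted to all 8 libraries without covariates (size factors by median of ratios, Wald test, default filters, unshrunken log2 fold changes). Genes were called at an adjusted p of 0.05 or less and 1.5-fold or more. Pair ratios of log2(normalised count + 1) were compared by exact permutation (two-sided) of all 70 assignments. Levels per length and shares were not tested. The fit was first tested on simulated data. Members and lists were chosen with earlier results of these data known. Named genes were all family genes, the 3 genes of smallest adjusted p in each related list and the 2 genes nearest in pattern to each member. Dsel, Chst1, Tpst1 and single marker genes were named after their values were seen.

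Of 8 erythroid markers 7 were found, with 6 called lower. Called higher were 5 of 15 chondrocyte markers (none were called lower), 3 of 6 endothelial and 1 of 6 osteoclast markers, and none of 8 B cell, 7 macrophage and 7 skeletal muscle markers. Epyc had the fewest counts of the 10 genes. Alternatives were edgeR version 4.0.16, limma-voom (limma version 3.58.1), other size factors and filters, no fold threshold, a 1.5-fold null, the replicate number as a block, longest-transcript lengths, leaving out single libraries and, added after the data were seen, leaving out DMM replicates 1 and 3 together. Same-numbered libraries did not deviate together (correlations from -0.12 to 0.12), so the numbers were not taken as pairs.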

Additional observations from a re-analysis of the deposited data

Results flagged for a closer look

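In groups of 4 libraries, a library was picked out where its gap to the nearest other exceeded Dixon's 95% critical value. Of 82 groups tested 4 met this, and chance gives about 4.1. DMM replicate 3 had 23660 normalised counts of Dcn against 12860 to 13900 in the other DMM libraries, and 9406 of Prelp against 5155 to 5617. For Chsy3, naive replicate 4 had 148.5 normalised counts against 113.1 to 114.5 in the other naive libraries. The log2 ratio of Fmod to Lum was 0.06154 in naive replicate 3 against 0.1549 to 0.1657 in the others. Without DMM replicate 3, Dcn and Prelp were still called, with log2 fold changes of 1.04 and 0.88.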

How the results depend on the processing

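Of the 10 SLRP genes, 7 were called in the reported fit and 3 with size factors from chondrocyte markers (Bgn, Dcn, Prelp and Ogn were lost). Against a 1.5-fold null 2 were called, Fmod and Lum, and Aspn was among those lost. With single libraries left out, 6 to 8 were called. Ogn was also lost with limma-voom and without DMM replicate 3, and Omd was gained with the total count as size factor and without naive replicate 3, DMM replicate 1 or DMM replicate 2. The edgeR quasi-likelihood test called the same 7 genes, with larger adjusted p than DESeq2, from 0.0016 (Fmod) to 0.0374 (Ogn). Of the 8 other family genes 5 were called, against 3 with limma-voom, 3 with the replicate block, 1 with chondrocyte size factors, 0 against the 1.5-fold null in DESeq2, 1 with DMM replicates 2 and 4 only, and 2 to 5 without single libraries (3 without naive replicate 1 or 3, 2 without DMM replicate 1 or 3). For the glycosaminoglycan and sulfation enzymes the count of 6 became 12 with the total count, 2 with chondrocyte factors, 11 without a fold threshold and 1 against the 1.5-fold null. Chondrocyte factors and the 1.5-fold null gave 2 and 3 proteases (7 reported), 6 and 3 collagens (13 reported) and 3 and 1 growth factors or receptors (6 reported), and DMM replicates 2 and 4 only gave 3 of the last. Over all genes, 1377 were called higher and 1052 lower, 2030 and 489 with the total count, whose median log2 fold change was 0.14, and 79 and 4682 with chondrocyte factors. The 1.5-fold null called 94 genes in all and no fold threshold 4010.

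Direction turned with chondrocyte factors for Omd (-0.1542), Chad (-0.3595) and Ecm2 (-0.3486). Epyc turned with limma-voom (0.0751), with the replicate block (0.0038) and without single libraries (-0.8775 to 0.9199), and Nyx with TMM factors (0.0053), the total count (0.1369) and without single libraries (-0.3556 to 0.142), while Optc ranged from -0.3247 to 0.0506 without single libraries. The cause of these turns was not tested. With the replicate block 7 SLRP genes were called, and Tsku and Podn were lost.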
